A study of Mus musculus with 12 samples.

Results

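The keratins described here were the 48 genes on the array whose platform symbol is Krt followed by digits alone. They were chosen by symbol among 19938 genes with a single symbol, and each had 1 probe set. RNA was measured with 1-colour whole-transcript arrays in day 16 neuronal cultures grown from D3, a mouse embryonic stem cell line. There were 4 groups of 3 biological replicates, 12 arrays in all. The siPRMT1 and siPRMT8 groups were D3 cells in which PRMT1 or PRMT8 had been knocked down, enzymes that add methyl groups to arginines of proteins. The siSCR group was D3 cells that carried a scrambled sequence, and the D3 group was unmodified cells. All 4 groups went through embryoid bodies, aggregates formed in suspension without the self-renewal factor LIF. Each group was 1 line, and the labels do not say whether replicates were separate differentiations. A p-value here speaks only to the spread among these samples.

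Keratins are the intermediate filament proteins of epithelial cells. A filament is built from pairs of 1 acidic type I and 1 basic type II keratin, so cells express members of both types together. Krt8 and Krt18 are the first pair to appear in the embryo and mark simple, single-layered epithelium, where Krt7, Krt19 and Krt20 may join them. Krt5 pairs with Krt14 and with Krt15 in the basal layer of stratified epithelium, and Krt4 pairs with Krt13 in the upper layers of non-cornifying epithelium such as that of the oesophagus. Other members belong to the inner root sheath, the hair shaft and the nail. Neurons use neurofilaments, peripherin and internexin in place of keratins, and the arrays read RNA of all cells in the culture. In such bulk samples, fewer cells of a type and less RNA per cell cannot be told apart.

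The members fell into 5 simple-epithelium, 13 stratified-epithelium, 9 inner root sheath and companion layer, 12 hair and nail, and 9 other keratins. Genes in the lowest 25% by mean value were left out of the tests, and 30 keratins and 14953 genes in all were tested. The tested members numbered 4 simple, 8 stratified, 4 inner root sheath, 8 hair and nail, and 6 other keratins. The limit lay at a mean of 5.43 on the log2 scale. Just below it were Krt78 (5.39), Krt16 (5.39) and Krt222 (5.35), and just above it Krt73 (5.47), Krt4 (5.48) and Krt71 (5.54). Krt4 had a mean of 5.37 in siPRMT1 and of 4.61 in D3, both under the limit, so it passed through siPRMT8 (6.19) and siSCR (5.76). A gene was called when its adjusted p in limma was under 0.05, and the level of one probe set says nothing of that of another, since signal also depends on the probes.

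Prmt1 ranged from 7.59 to 7.95 in siPRMT1, against 8.74 to 8.86 in siSCR, 1.06 lower on the log2 scale (-1.06, limma adjusted p = 0.000115). Prmt8 ranged from 6.17 to 6.44 in siPRMT8, against 6.60 to 7.18 in siSCR (-0.61, adjusted p = 0.0171). Prmt1 was also higher in siPRMT8, by 0.43 against siSCR (adjusted p = 0.00625) and 0.49 against D3 (adjusted p = 0.00232), and Prmt8 was lower in siPRMT1 than in D3 (-0.75, adjusted p = 0.00488). Prmt8 was not called between siPRMT1 and siPRMT8 (0.29, adjusted p = 0.489).

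In 2 groups, 1 library stood apart from the others. The mean of 18 pan-neuronal genes was 8.48 in siSCR replicate 1, against 9.48 and 9.42 in siSCR replicates 2 and 3, while it ranged from 8.17 to 8.33 in siPRMT1, from 8.25 to 8.47 in siPRMT8 and from 9.42 to 9.53 in D3. Prmt8 read 6.60 in siSCR replicate 1, against 7.18 and 7.10 in the other siSCR arrays. The keratins also set this array apart, and the keratin calls against siSCR are given with and without it, as are the list counts and the named genes whose calls it decided. In siPRMT1 replicate 2 the mean of 12 pluripotency genes was 8.90, the lowest of the 12 arrays, against 9.96 and 9.75 in siPRMT1 replicates 1 and 3, and that of 23 simple-epithelium adhesion genes was 7.33, against 7.75 and 7.66. Of the neuronal markers, Rbfox3 (the nuclear protein NeuN) averaged 7.14 in siPRMT1, 7.15 in siPRMT8, 8.34 in siSCR and 8.58 in D3. In single siSCR arrays it read 7.64, 8.77 and 8.61.

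Over the 4 groups together, 5 of the 30 tested keratins passed the moderated F test (limma, Benjamini-Hochberg over all genes), and 30.6% of all genes tested did. The 5 were Krt15 (adjusted p = 0.00117), Krt5 (0.00431), Krt19 (0.00503), Krt13 (0.00556) and Krt4 (0.0155). All but Krt19 were among the 8 tested stratified keratins, of which 4 passed, and Krt19 was 1 of 4 tested simple keratins. Krt4 had passed the limit for testing only through siPRMT8 and siSCR. None of the 18 other tested keratins passed. The share of keratins that differed was thus below that of all genes. Only 5 of the 30 had a mean above the median of all genes, and the part of low signal in this share was not tested. As a description, 6 of the 8 keratins called in at least 1 comparison spanned more than 1 log2 unit over the 12 arrays, and the 22 tested keratins that were never called spanned 0.24 to 0.90.

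Krt15, a type I keratin of basal cells and hair follicle stem cells, read 6.46, 7.10 and 6.37 in siPRMT1, 7.95, 8.18 and 8.59 in siPRMT8, 8.19, 6.87 and 7.005 in siSCR, and 5.80, 6.05 and 5.88 in D3. Every array of the 3 modified lines lay above every D3 array. Krt15 rose by 2.33 on the log2 scale in siPRMT8 against D3 (SE 0.307, 5.02-fold, limma adjusted p = 0.000633, n = 3 each). In siPRMT1 it lay 0.73 above D3, which did not pass (adjusted p = 0.0988).

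Krt5, the type II partner of Krt14 and Krt15 in basal cells, read 6.60, 7.33 and 6.56 in siPRMT1, 7.19, 7.28 and 7.57 in siPRMT8, 7.95, 6.68 and 6.79 in siSCR, and 5.56, 5.80 and 5.58 in D3. Again no array of the modified lines reached down to the D3 arrays. Krt5 rose by 1.70 in siPRMT8 (SE 0.295, 3.26-fold, limma adjusted p = 0.00186) and by 1.18 in siPRMT1 against D3 (SE 0.295, 2.27-fold, adjusted p = 0.0125). It was the keratin called against D3 in both knockdown lines, which share the D3 arrays.

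Krt13, a type I keratin of non-cornifying epithelium, read 6.37, 7.30 and 6.14 in siPRMT1, 7.54, 7.45 and 7.78 in siPRMT8, 7.48, 6.54 and 6.62 in siSCR, and 5.94, 5.63 and 5.99 in D3. It rose by 1.74 in siPRMT8 against D3 (SE 0.292, 3.33-fold, limma adjusted p = 0.00161), and in siPRMT1 it lay 0.75 above D3 without passing (adjusted p = 0.077). Krt4, its type II partner, read 5.09, 6.09 and 4.92 in siPRMT1, 6.10, 6.26 and 6.20 in siPRMT8, 6.55, 5.47 and 5.26 in siSCR, and 4.78, 4.45 and 4.61 in D3. It rose by 1.58 in siPRMT8 against D3 (SE 0.327, 2.99-fold, adjusted p = 0.00457), and it lay 0.75 above D3 in siPRMT1 (adjusted p = 0.108). Krt4 passed the limit for testing only through siPRMT8 and siSCR, where it was high. Its call in siPRMT8 against D3 was also made in the 15 alternative settings that tested it. Nearly all of these used the same limit, and the stricter one left Krt4 out, so they are not separate support. For both partners the D3 arrays were the 3 lowest of the 12. The siPRMT8 values lay close together, with SDs of 0.169 for Krt13 and 0.0791 for Krt4, while 1 array each of siPRMT1 and siSCR lay far above the other arrays of its group.

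Krt14, the usual type I partner of Krt5, showed smaller differences. It read 6.14, 6.20 and 6.06 in siPRMT1, 6.25, 6.38 and 6.27 in siPRMT8, 6.51, 6.17 and 6.18 in siSCR, and 6.06, 5.91 and 6.14 in D3. The siPRMT8 arrays lay above the D3 arrays, by 0.26 in the mean (SE 0.0949), and the difference did not pass (limma adjusted p = 0.0618). The other tested stratified keratins were Krt10 and Krt12, which mark the suprabasal epidermis and the cornea, and Krt17, which marks hair follicles and injured epidermis. Their differences from D3 ranged from 0.06 to 0.50 over the 3 modified lines, and none passed.

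**Figure D1:**
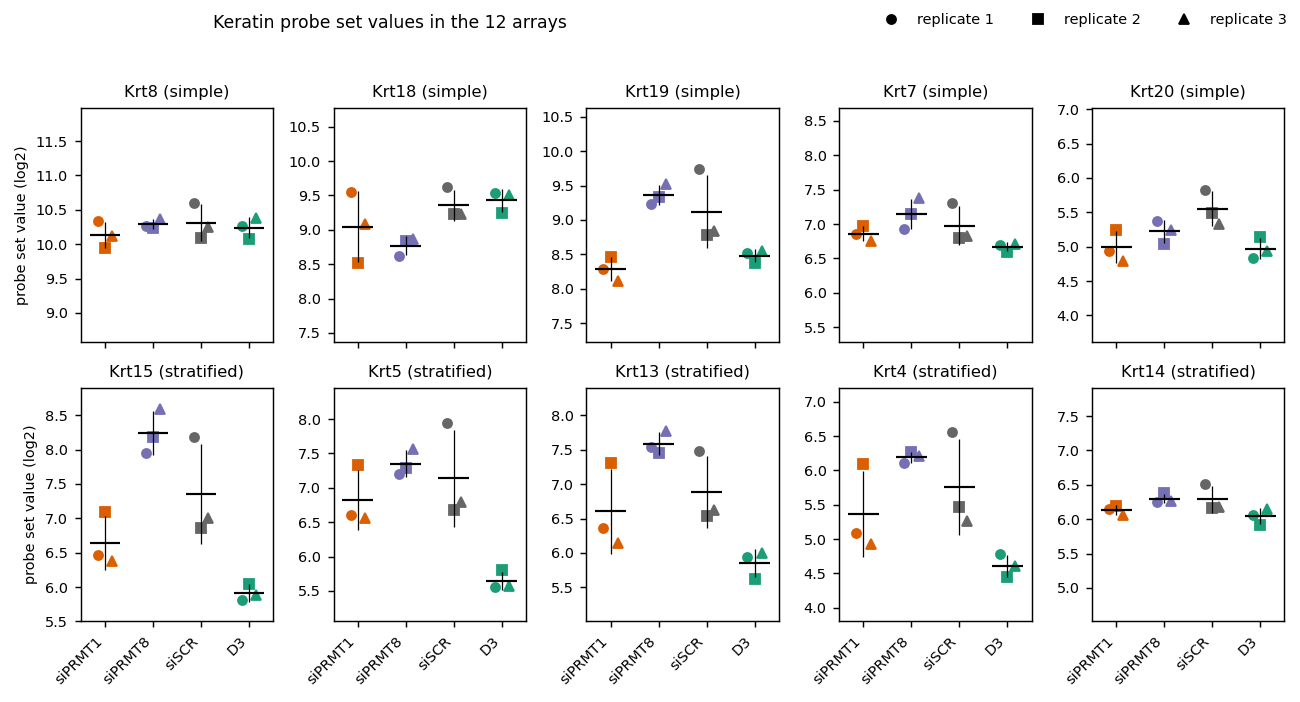
Log2 value of 5 simple-epithelium keratins (upper row) and 5 stratified-epithelium keratins (lower row) in each array, with siPRMT1, siPRMT8, siSCR and D3 from left to right. Points are arrays (circle, square and triangle for replicates 1, 2 and 3), horizontal bars are group means and vertical lines are SDs (n = 3); all panels span the same number of log2 units. Krt15, Krt5, Krt13 and Krt4 are lowest in the 3 D3 arrays, and Krt8 overlaps between all groups.

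Of the simple-epithelium pair, Krt8 (type II) showed no called difference in any of the 6 comparisons. It read 10.34, 9.95 and 10.12 in siPRMT1, 10.26, 10.24 and 10.37 in siPRMT8, 10.61, 10.09 and 10.25 in siSCR, and 10.27, 10.07 and 10.39 in D3. Its largest difference of means was -0.18, in siPRMT1 against siSCR (SE 0.134, limma adjusted p = 0.373), and its groups overlapped in all comparisons.

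Krt18, the type I partner of Krt8, was the 1 keratin called lower against D3. It read 9.54, 8.52 and 9.08 in siPRMT1, 8.61, 8.83 and 8.87 in siPRMT8, 9.62, 9.23 and 9.22 in siSCR, and 9.54, 9.24 and 9.51 in D3. The siPRMT8 arrays lay below every array of siSCR and D3. Krt18 fell by 0.66 in siPRMT8 against D3 (SE 0.208, 1.58-fold, limma adjusted p = 0.0357), and it lay 0.59 below siSCR without passing (log2 -0.59, adjusted p = 0.0614, and -0.46 with adjusted p = 0.161 without siSCR replicate 1). The siPRMT1 arrays reached from 8.52 to 9.54, and the 0.38 by which their mean lay below D3 did not pass (log2 -0.38, adjusted p = 0.193). The call against D3 was lost when any 1 of 5 arrays was left out, with adjusted p between 0.0662 without siPRMT8 replicate 2 and 0.116 without siPRMT8 replicate 1. The others were siPRMT8 replicate 3 (0.069), D3 replicate 1 (0.112) and D3 replicate 3 (0.104).

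Krt19, a type I keratin of simple and glandular epithelium that has no tail domain, differed from the Krt8 and Krt18 pair in its pattern. It read 8.28, 8.45 and 8.11 in siPRMT1, 9.23, 9.34 and 9.52 in siPRMT8, 9.74, 8.79 and 8.84 in siSCR, and 8.52, 8.37 and 8.55 in D3. It rose by 0.88 in siPRMT8 against D3 (SE 0.205, 1.84-fold, limma adjusted p = 0.00807). Relative to siSCR it was 1.79-fold lower in siPRMT1 (log2 -0.84, SE 0.205, adjusted p = 0.0159), and it lay 0.20 below D3 there with overlapping arrays (log2 -0.20, adjusted p = 0.49). It was the 1 keratin called in siPRMT1 against siSCR. Without siSCR replicate 1 it lay at -0.53 (adjusted p = 0.00458), and without siPRMT1 replicate 3 the call was lost (-0.75, adjusted p = 0.0606).

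Krt7, a type II keratin of ducts and glands, read 6.86, 6.97 and 6.75 in siPRMT1, 6.93, 7.15 and 7.37 in siPRMT8, 7.30, 6.80 and 6.82 in siSCR, and 6.70, 6.59 and 6.72 in D3. It rose by 0.48 in siPRMT8 against D3 (SE 0.137, 1.40-fold, limma adjusted p = 0.0219). That call was lost without D3 replicate 1 (adjusted p = 0.0561), 2 (0.0728) or 3 (0.0511) and without siPRMT8 replicate 2 (0.053) or 3 (0.095). Krt20, a type I keratin of intestinal and urothelial surface cells, was below the limit for testing. It read 4.94, 5.25 and 4.80 in siPRMT1, 5.38, 5.04 and 5.25 in siPRMT8, 5.83, 5.49 and 5.33 in siSCR, and 4.84, 5.14 and 4.93 in D3. With no limit on low values it was 0.55 lower in siPRMT1 than in siSCR (log2 -0.55, adjusted p = 0.0294), a call that was lost without siSCR replicate 1 (-0.42, adjusted p = 0.0697).

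Set out by comparison, siPRMT8 against D3 held most of the calls. There 7 keratins rose and 1 fell, 8 of 30 or 26.7%, against 27.7% of all genes called (12.5% higher and 15.2% lower). The share among keratins was close to that among all genes and is not a result about the family. Of the 4 tested simple keratins 2 rose, 1 fell and Krt8 was not called. Of the 8 tested stratified keratins 4 rose and 4 were not called. Among the 4 that rose, Krt4 had passed the limit for testing only through siPRMT8 and siSCR. The remaining call was Krt75, a type II keratin of the companion layer of hair follicles, at 6.28, 6.05 and 6.07 in siPRMT8 and 5.78, 5.91 and 5.85 in D3. It rose by 0.29 (SE 0.0961, limma adjusted p = 0.0448), a call that was lost without any 1 of the 6 arrays of these groups (adjusted p 0.0548 to 0.171). The calls of Krt15, Krt5, Krt13, Krt4 and Krt19 held with each of those arrays left out. By signed difference, Krt15, Krt13, Krt5 and Krt4 were in places 3, 6, 7 and 12 from the highest of all 14953 genes, and Krt19 in place 55.

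Over the tested members, the median difference of siPRMT8 from D3 was 0.92 for stratified, 0.27 for simple, 0.10 for inner root sheath, 0.06 for hair and nail and 0.16 for other keratins, with 0.03 over all genes. Over all 13 stratified members, the 5 below the limit included, the median was 0.23, and 11 of 13 lay above 0. Over all 5 simple members it was 0.25, so the 2 classes differed in median only over the members that passed the limit. Arrays did not overlap and were higher in siPRMT8 for 6 of the 8 tested stratified keratins and 11 of all 30, against 27.2% of all genes.

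**Figure D2:**
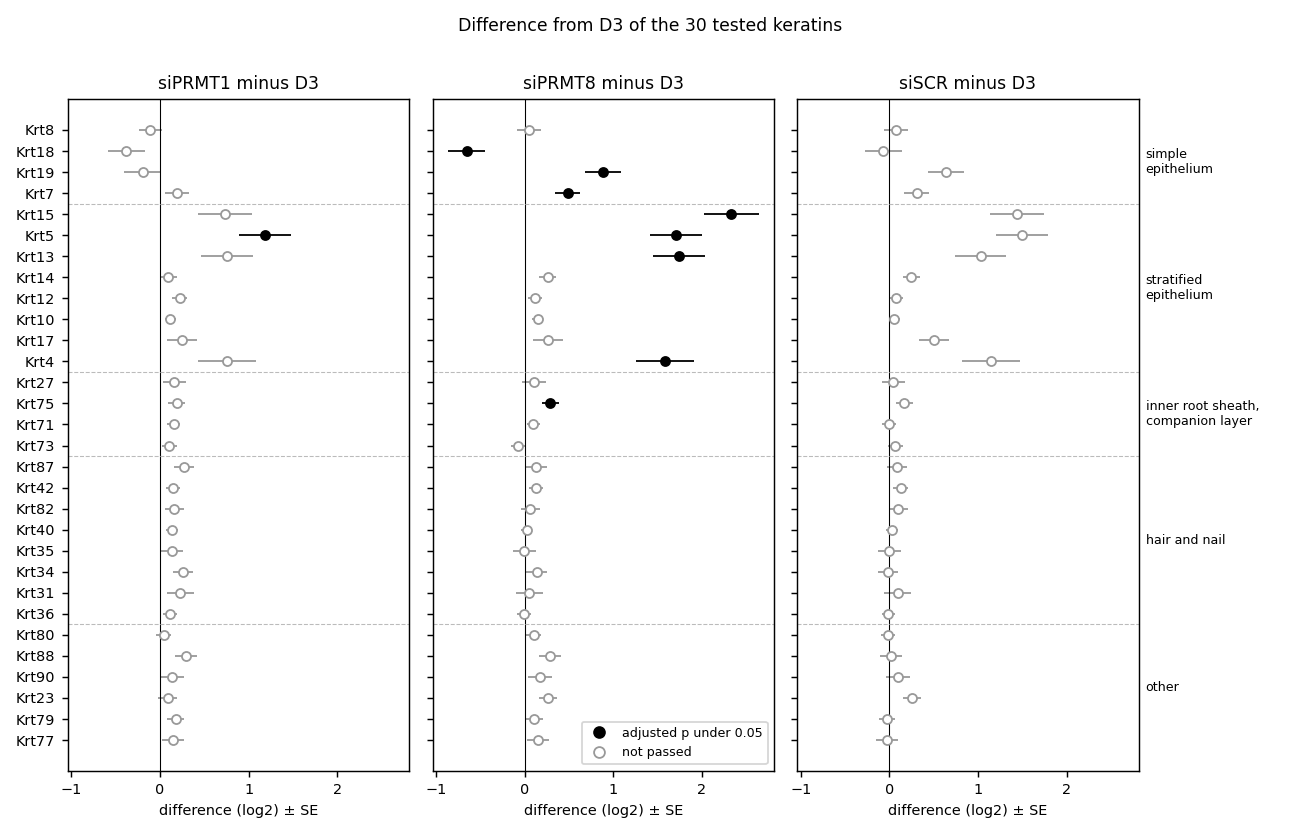
Difference of the group mean from D3 on the log2 scale for the 30 tested keratins, for siPRMT1, siPRMT8 and siSCR from left to right, with bars of 1 SE from limma. Filled points passed at an adjusted p under 0.05: 1 in siPRMT1, 8 in siPRMT8 and 0 in siSCR. The stratified keratins Krt15, Krt5, Krt13 and Krt4 lie to the right of 0 in all 3 panels, which share the D3 arrays.

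Against D3, siPRMT1 gave 1 call of 30, Krt5, which rose, while 26.4% of all genes were called (11.7% higher). Leaving out siPRMT1 replicate 1 made it 4 calls, Krt18 among them at -0.63 (limma adjusted p = 0.0253). Leaving out siPRMT1 replicate 3 made it 2, with Krt13 at 0.98 (limma adjusted p = 0.0446). In the same order, 3627 and 2941 of all genes were called, in place of 3952. The Krt5 call held in each leave-one-out fit of these groups. At an unadjusted p under 0.05 there were 8 keratins (26.7%), 5 of them stratified, against 39.8% of all genes. Of the 8 tested stratified keratins 7 lay above D3 in siPRMT1 with no overlap of arrays, as did 23.6% of all genes. Their median difference was 0.49, that of the 4 simple keratins -0.15, and that of all genes 0.05. With the members below the limit included, the median was 0.22 over all 13 stratified and -0.11 over all 5 simple keratins.

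The scrambled control also lay above unmodified cells in these keratins. In siSCR against D3, 0 keratins passed in limma, 9 had an unadjusted p under 0.05 (9 of 30, against 9.56% of all genes), and 0.154% of all genes (23) were called, or 15 genes with the replicate number as a block. Krt5 lay 1.49 higher in siSCR (SE 0.295, 2.81-fold, adjusted p = 0.0991), Krt15 1.44 (2.71-fold, adjusted p = 0.11), Krt4 1.15 and Krt13 1.03 (adjusted p = 0.244 each), and Krt19 0.64 (adjusted p = 0.309). All 5 were higher in every siSCR array than in any D3 array. Of the 8 tested stratified keratins 6 did not overlap, and 8 of all 30, against 10.7% of all genes. By signed difference, Krt5 and Krt15 were in places 3 and 4 from the highest of all genes tested in this comparison of the 2 control lines. Without siSCR replicate 1 they still lay 1.09 and 1.02 above D3 (adjusted p = 0.0772 and 0.122), with Krt4 at 0.75, Krt13 at 0.72 and Krt19 at 0.33.

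Against siSCR, few keratins passed in either knockdown line. In siPRMT8 against siSCR 0 of 30 passed in limma, 3 had an unadjusted p under 0.05, against 36.9% of all genes, and 23.8% of all genes were called. Krt15 lay 0.89 higher (adjusted p = 0.0555) and Krt13 0.71 higher (adjusted p = 0.0998). This count rested on siSCR replicate 1. Without that array 4107 genes in all were called, in place of 3565, and 6 keratins rose, namely Krt15 by 1.31 (adjusted p = 0.00107), Krt13 by 1.01 (0.0164), Krt4 by 0.83 (0.0391), Krt5 by 0.62 (0.0425), Krt19 by 0.55 (0.00338) and Krt7 by 0.34 (0.043). Without siPRMT8 replicate 2 the count was 1, Krt17 at -0.44 (adjusted p = 0.0499). In siPRMT1 against siSCR the 1 call was Krt19, lower, against 18.7% of all genes (11.6% lower). There the stratified keratins had differences of -0.71 to 0.14, and without siSCR replicate 1 Krt5 lay at 0.09 and Krt15 at -0.29. With 1 array left out, that count was 2 without siPRMT1 replicate 1 and 0 without siPRMT1 replicate 3. In the same order, 2529 and 1771 of all genes were called, in place of 2801.

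The knockdown lines were also set against each other. In siPRMT1 against siPRMT8 0 keratins passed in limma, 4 had an unadjusted p under 0.05 (13.3%, against 12.2% of all genes), and 0.154% of all genes were called. Krt15 lay 1.60 lower in siPRMT1 than in siPRMT8 (log2 -1.60, SE 0.307, adjusted p = 0.0786), Krt19 1.08 lower (-1.08, SE 0.205, adjusted p = 0.0719), Krt13 0.98 lower (-0.98, adjusted p = 0.221) and Krt4 0.82 lower (-0.82, adjusted p = 0.345). These 4 did not overlap between the groups, while Krt5 did (-0.52, adjusted p = 0.508). In all, 6 of 30 keratins lay lower in siPRMT1 with no overlap, Krt14 and Krt23 being the others, against 7.82% of all genes. Krt15 was in place 2 and Krt19 in place 10 from the lowest of all genes tested. Leaving out siPRMT1 replicate 2 raised the calls over all genes to 862, in place of 23, and made calls of 4 keratins, Krt15 at -1.82 (adjusted p = 0.0141), Krt13 at -1.33 (0.0153), Krt19 at -1.17 (0.0198) and Krt4 at -1.18 (0.0376).

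The arrays that decided these counts were high in the same keratins. In siSCR replicate 1, Krt15 lay 1.25 above the mean of the other siSCR arrays, Krt5 1.22, Krt4 1.19, Krt19 0.93 and Krt13 0.91. In siPRMT1 replicate 2, Krt4 lay 1.08 and Krt13 1.05 above the mean of the other siPRMT1 arrays, Krt5 0.75 and Krt15 0.68, but Krt19 only 0.26. The 2 arrays differed in the simple pair, whose members moved the same way within each array. Krt8 and Krt18 were 0.44 and 0.39 above the others of their group in siSCR replicate 1, and at -0.28 and -0.79 in siPRMT1 replicate 2. The part of neuronal gene loss in the keratin values of siSCR replicate 1 was not tested. In siPRMT1, where replicate 2 had the highest Krt4, Krt13 and Krt5, its pan-neuronal mean was the highest of the group (8.33, against 8.17 and 8.25) and its pluripotency mean the lowest (8.90, against 9.96 and 9.75). The part of pluripotent cells in those keratin values was not tested.

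Across the 12 arrays several of the called keratins varied together. Pearson's r was 0.92 between Krt5 and Krt15, 0.97 between Krt13 and Krt4, and 0.88 between Krt19 and Krt15. With each group's mean taken off, r was 0.99, 0.94 and 0.92 for these pairs, so arrays of the same group differed in these keratins together. Krt18 ran apart, with r from -0.62 to -0.16 against the other 7 keratins that were called in any comparison. With group means taken off, its r was 0.30 with Krt19, 0.31 with Krt7 and 0.02 with Krt15, and ranged from -0.35 to 0.31 over the 7. These values are a description of 12 arrays that fall into 4 groups and include the displaced arrays, and they carry no p.

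**Figure D3:**
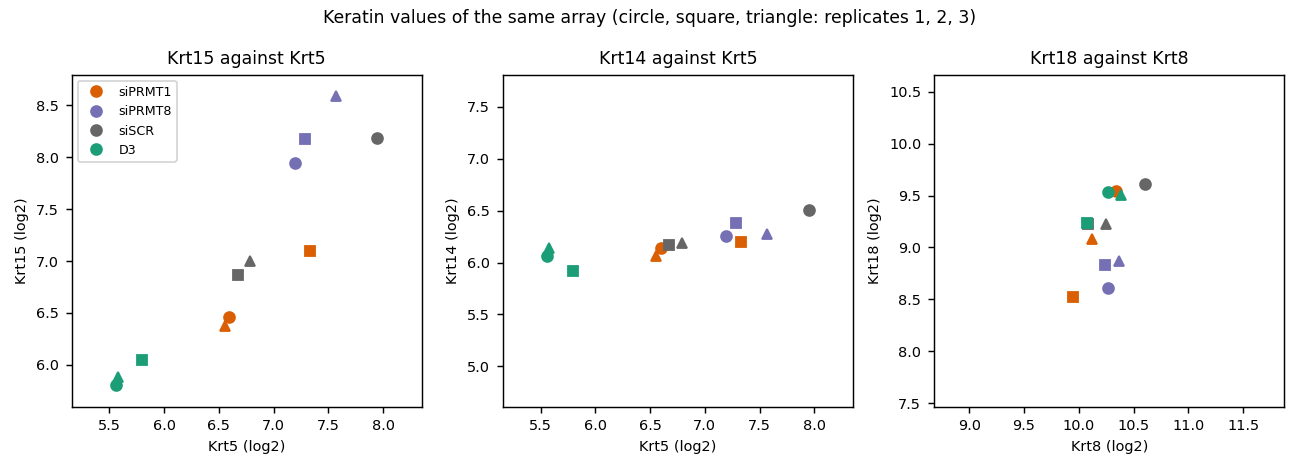
Log2 values of 2 keratins in the same array for Krt15 against Krt5 (left), Krt14 against Krt5 (middle) and Krt18 against Krt8 (right), with points coloured by group and shaped by replicate, both axes spanning the same number of log2 units. Krt15 and Krt5 spread together over more than 2 log2 units, Krt14 spreads little while Krt5 varies, and Krt18 varies more than Krt8.

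The other classes held few differences. Krt87, the hair and nail keratin with the highest probe set signal, read 6.91, 7.20 and 6.76 in siPRMT1, 6.99, 6.85 and 6.59 in siPRMT8, 6.79, 6.73 and 6.79 in siSCR, and 6.63, 6.63 and 6.79 in D3. Its largest difference was 0.27 in siPRMT1 against D3 (limma adjusted p = 0.109). Krt80, the one with the highest signal among the other keratins, ranged from 6.39 to 6.79 over the 12 arrays. None of the 8 tested hair and nail keratins and none of the 6 tested other keratins was called in any comparison. At an unadjusted p under 0.05 there were 2 hair and nail keratins in siPRMT1 against D3 and 0 in siPRMT8 against D3, where 39.8% and 39.1% of all genes had one. The 18 keratins below the limit spanned at most 1.03 log2 units, in Krt20. With no limit on low values, 1 more of them passed beside Krt20, namely Krt9, the type I keratin of palm and sole epidermis. It was 0.42 higher in siPRMT1 than in D3 (adjusted p = 0.0284) and 0.40 higher than in siSCR (adjusted p = 0.046, and 0.46 with adjusted p = 0.0279 without siSCR replicate 1).

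Keratin genes lie in a type I cluster on mouse chromosome 11 and a type II cluster on chromosome 15, with Krt18 at the end of the type II cluster beside Krt8. In RefSeq's gene order for assembly GRCm38.p6, which was used for order only, each cluster held 27 keratin genes. Krt13, Krt15 and Krt19 were direct neighbours at places 20, 21 and 22 of the type I cluster. These 3 differed from D3 by 1.74, 2.33 and 0.88 in siPRMT8. The genes on either side showed smaller differences, Krt36 at -0.01 and Krt9, below the limit for testing, at 0.23. In the type II cluster Krt5 and Krt4 were apart, at places 14 and 23, with no called keratin between them. Krt6a, a keratin of activated epidermis beside Krt5 that is outside the symbol rule, read 4.77, 6.29 and 4.98 in siPRMT1, 5.61, 5.46 and 5.76 in siPRMT8, 5.65, 5.23 and 5.37 in siSCR, and 4.94, 4.88 and 4.77 in D3. Its siPRMT8 and siSCR arrays lay above the D3 arrays, and siPRMT1 replicate 2 was again the highest of its group. Its probe set can share sequence with Krt6b, so its value is uncertain.

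**Figure D4:**
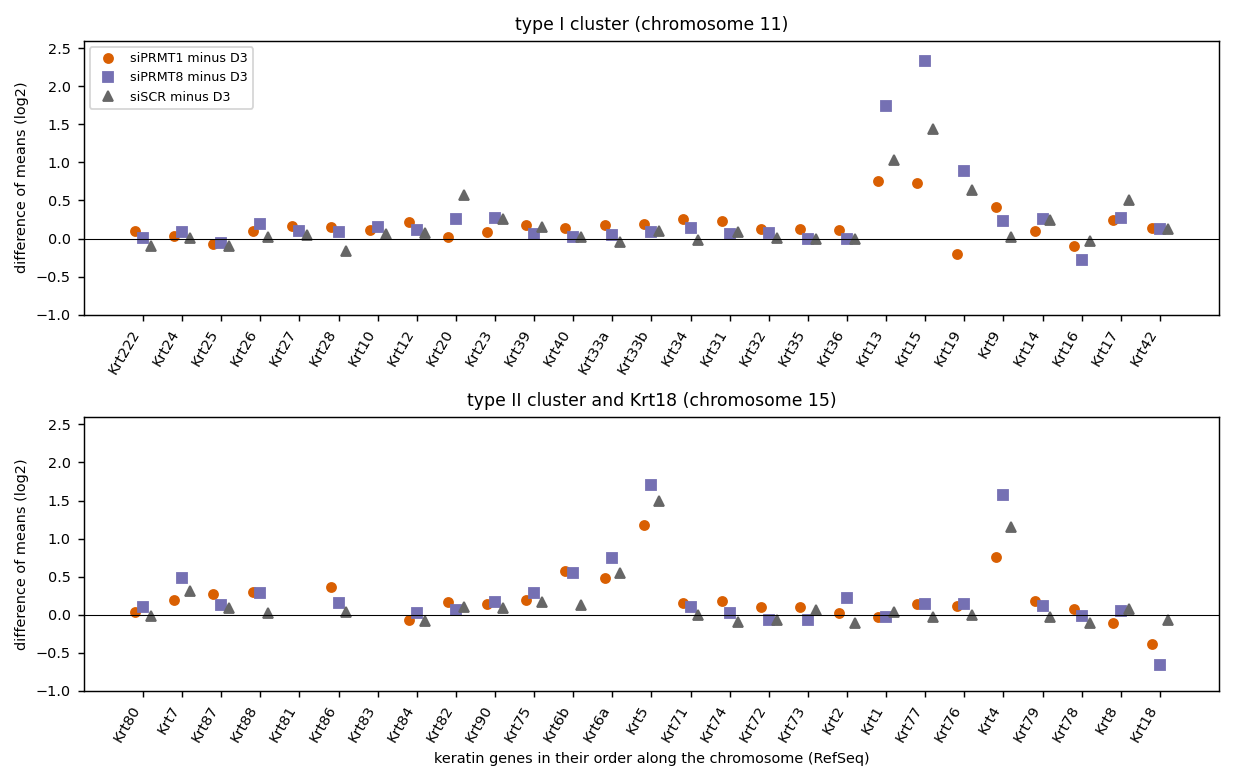
Difference of the group mean from D3 on the log2 scale for the keratin genes in their order along the chromosome, with the type I cluster above and the type II cluster below, for siPRMT1 (circles), siPRMT8 (squares) and siSCR (triangles). Krt13, Krt15 and Krt19 stand side by side in the upper panel and Krt5 and Krt4 apart in the lower one. Krt81 and Krt83 have no point, and the 4 symbols with a letter (Krt6a, Krt6b, Krt33a, Krt33b) are outside the described set.

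Promoters are shown for 2 stratified keratins that rose together in siPRMT8 against D3 and for the simple pair, of which Krt18 fell there. Each window runs from 250 bases before to 50 bases after the annotated start, from RefSeq on build GRCm38.p6, where 35 of the 48 keratins had an entry. Krt15, Krt4 and Krt19 are named only. In the pattern TGANTCA, N stands for any base. The Krt5 and Krt13 windows read as follows, with capitals for the run ATAAAAGG and, in Krt13, also for TGANTCA.
Krt5 (chr15:101712856-101713155, minus strand): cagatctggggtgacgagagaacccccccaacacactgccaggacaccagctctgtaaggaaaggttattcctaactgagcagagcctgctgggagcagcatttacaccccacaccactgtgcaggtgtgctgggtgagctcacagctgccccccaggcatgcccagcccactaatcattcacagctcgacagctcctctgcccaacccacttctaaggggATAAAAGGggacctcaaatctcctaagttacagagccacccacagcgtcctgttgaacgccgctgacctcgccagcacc
Krt13 (chr11:100121517-100121816, minus strand): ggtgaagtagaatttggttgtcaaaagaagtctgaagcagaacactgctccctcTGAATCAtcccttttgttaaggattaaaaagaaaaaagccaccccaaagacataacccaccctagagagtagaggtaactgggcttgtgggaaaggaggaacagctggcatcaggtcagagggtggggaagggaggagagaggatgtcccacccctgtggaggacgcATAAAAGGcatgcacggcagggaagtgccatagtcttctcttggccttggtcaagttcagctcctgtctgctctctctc

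In both, the run ATAAAAGG began 29 bases before the annotated start. It was chosen after the sequences had been seen and searched on the sense strand. It was in 6 of 35 keratin windows (17.1%) and in 1.15% of 32851 windows of the same length. The 6 include Krt5 and Krt13, from which it was chosen, and the other 4 were those of Krt7, Krt20, Krt25 and Krt82. Keratins had 1 window per gene, while the 32851 windows were not reduced to 1 per gene. The shares of keratin and of all windows, here and below, are thus of unlike sets. TGANTCA, searched on both strands, was in Krt13 alone among the keratins and in 7.81% of all windows.

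The Krt8 and Krt18 windows follow, with capitals for the letters TATAAA in Krt8, which began 1 base before the annotated start, and the AP-2 motif GCCNNNGGC in Krt18.
Krt8 (chr15:102004293-102004592, minus strand): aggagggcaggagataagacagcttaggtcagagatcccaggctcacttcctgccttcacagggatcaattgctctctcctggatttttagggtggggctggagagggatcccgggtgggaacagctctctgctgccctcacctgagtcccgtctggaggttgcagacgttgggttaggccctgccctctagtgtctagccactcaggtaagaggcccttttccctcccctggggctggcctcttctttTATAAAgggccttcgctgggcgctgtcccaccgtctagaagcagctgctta
Krt18 (chr15:102027966-102028265, plus strand): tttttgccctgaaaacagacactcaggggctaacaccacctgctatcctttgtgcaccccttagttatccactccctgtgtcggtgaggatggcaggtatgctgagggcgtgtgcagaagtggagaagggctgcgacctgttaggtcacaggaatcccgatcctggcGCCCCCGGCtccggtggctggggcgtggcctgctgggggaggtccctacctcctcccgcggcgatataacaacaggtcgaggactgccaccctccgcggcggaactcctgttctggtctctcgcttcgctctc

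The letters TATAAA, those of a TATA box, searched at any place on the sense strand, were in 16 of 35 keratin windows (45.7%), Krt8 among them, and in 8.32% of all windows. A T just before the run above makes a TATAAA, so both searches can match the same place, and Krt20 and Krt25 matched both. GCCNNNGGC on both strands was in 7 of 35 keratin windows, Krt18 and Krt7 among them, and in 16.6% of all windows, and the GC box GGGCGG on both strands in 2 keratin windows (Krt7 and Krt75) and 35.7% of all. A match is a description of these letters, not of a factor's binding.

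The genes most like a keratin over the 12 arrays were named by Pearson's r, as a description. With Krt18 these were Zbtb44 (0.96), Gadd45b, Ccn1, Smurf1, Tns4, Prrc1, Cln6 and Mfge8 (0.95). With Krt8 they were Anxa3 (0.90), Bloc1s2, Smndc1, Rps4l, Plek2, Tpm1, Wdr93 and Lrrfip1 (0.84). For the keratins that differed, the same search was added after their values had been seen. Krt15 was nearest to Gsto1 (0.98), S100a16 (0.97) and Cyp2f2 (0.97), the last an enzyme of airway secretory cells, and Krt19 to Ehf (0.96), an epithelial transcription factor. S100a16 (0.95) was also the nearest to Krt5.

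The genes that surround keratins in an epithelial cell were described from lists. For comparison, the shares of all genes called were 27.7% in siPRMT8 and 26.4% in siPRMT1 against D3, and 23.8% and 18.7% against siSCR. Of 23 tested adhesion and junction genes of simple epithelium, 3 rose and 1 fell in siPRMT8 against D3, 3 rose and 0 fell in siPRMT1 against D3, 0 rose and 1 fell in siPRMT8 against siSCR, and 1 rose and 1 fell in siPRMT1 against siSCR. These 4 of 23, or fewer, were smaller shares than those of all genes. The junction protein Marveld2 (0.40, limma adjusted p = 0.0127) and the small GTPase Rab25 (0.69, adjusted p = 0.0204) rose in siPRMT8 against D3. Muc1, an apical mucin, fell by 1.18 in siPRMT1 relative to siSCR (adjusted p = 0.00468). Epcam and Cdh1, adhesion genes of this list, were called in none of these 4 comparisons. The part of epithelial cells in their signal was not tested. Of 18 desmosome and hemidesmosome genes, which anchor keratin filaments, 2 rose and 1 fell in siPRMT8 against D3 and 0 rose and 2 fell against siSCR. The 2 that fell were Dst, a plakin (log2 -0.30, limma adjusted p = 0.013), and Lama3 (-0.19, adjusted p = 0.042). Without siSCR replicate 1, Lama3 was not called (limma adjusted p = 0.0659). The part of neurons in the Dst value was not tested. In siPRMT1 1 of them rose against D3 and 0 passed against siSCR, where 3 had an unadjusted p under 0.05.

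Of 18 epithelial transcription and splicing regulators, 2 rose and 4 fell in siPRMT8 against D3, 1 rose and 2 fell in siPRMT1 against D3, 2 rose and 5 fell in siPRMT8 against siSCR, and 1 rose and 3 fell in siPRMT1 against siSCR, beside the shares of all genes above. Grhl2, a transcription factor of epithelial junction genes, rose in all 4, by 0.76 and 0.48 in siPRMT8 and by 0.78 and 0.50 in siPRMT1 against D3 and siSCR. Ehf fell by 0.86 in siPRMT1 against siSCR (limma adjusted p = 0.0069) and rose by 0.66 in siPRMT8 against D3 (adjusted p = 0.0146). Tfap2a, an AP-2 factor of surface ectoderm and neural crest, fell by 1.11 in siPRMT8 and by 1.70 in siPRMT1 against D3, and in siSCR too, by 1.21 (adjusted p = 0.000607). Elf3 fell by 0.71 and Grhl3 by 0.59 in siPRMT8 against siSCR, where Tfap2b rose by 0.87, a call that was lost without siSCR replicate 1 (0.59, adjusted p = 0.117). Trp63, which defines basal cells, averaged 6.35 in siPRMT1, 6.35 in siPRMT8, 6.37 in siSCR and 6.16 in D3, and it was not called.

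Of 12 epidermal differentiation genes 1 fell in siPRMT1 against siSCR, Sprr1a, a cornified envelope protein (log2 -1.51, limma adjusted p = 0.00368), and 0 passed in siPRMT8 against siSCR, where 1 had an unadjusted p under 0.05. Against D3, 0 rose and 1 fell in siPRMT8 and 1 rose and 1 fell in siPRMT1. Of 12 keratin-binding and chaperone genes, Hspb1 (-0.97, adjusted p = 0.0173) and Hspa1a (-0.30, adjusted p = 0.0465) fell in siPRMT8 against siSCR, and Pnn rose by 0.23 in siPRMT1 against siSCR (adjusted p = 0.0421). Without siSCR replicate 1, Hspb1 was at -0.82 (adjusted p = 0.0442), and Hspa1a (adjusted p = 0.126) and Pnn (adjusted p = 0.0658) were not called. Against D3, 1 of these rose and 1 fell in each knockdown line. Of 15 other intermediate filament genes, 2 rose and 3 fell in siPRMT8 and 1 rose and 3 fell in siPRMT1 against siSCR. The glial filament Gfap fell by 1.88 and 1.71 there, and the nuclear lamin Lmnb1 rose by 0.28 and 0.37. Gfap itself rose in siSCR against D3, by 1.21 (adjusted p = 0.0102), and against D3 it fell by 0.68 in siPRMT8 and by 0.50 in siPRMT1. The neurofilament Nefm rose by 1.08 in siPRMT8 against siSCR, while against D3 it lay 0.41 higher (adjusted p = 0.285). In all, 1 rose and 4 fell in siPRMT8 and 2 rose and 4 fell in siPRMT1 against D3. The medians of the 5 lists from adhesion to keratin-binding genes lay between -0.14 and 0.21 in the 4 knockdown comparisons, with 0.01 to 0.05 over all genes.

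**Figure D5:**
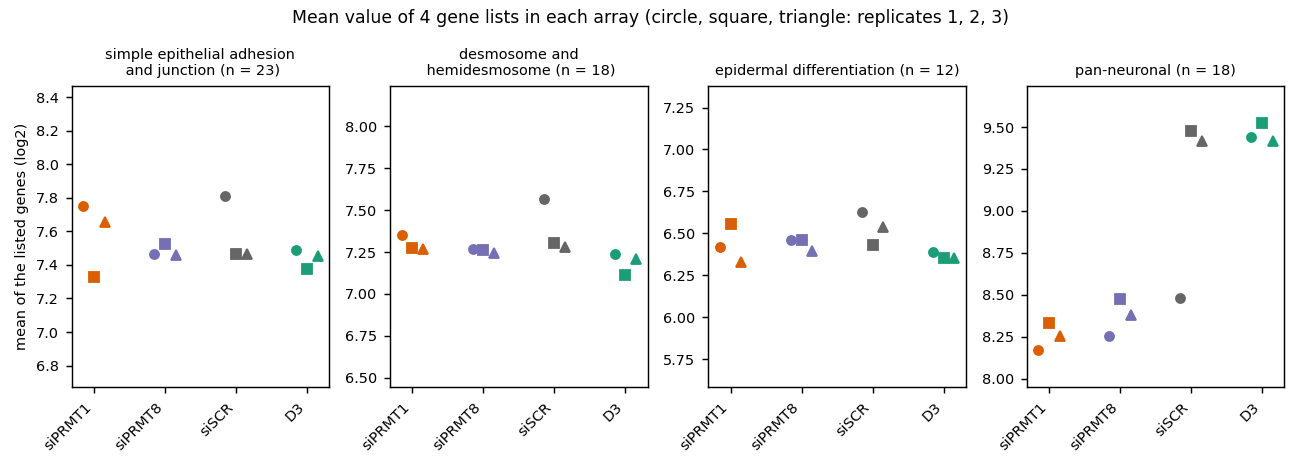
Mean log2 value of 4 gene lists in each array, with siPRMT1, siPRMT8, siSCR and D3 from left to right and replicates as circles, squares and triangles; n is the number of tested genes in the list and all panels span the same number of log2 units. The pan-neuronal mean of siSCR replicate 1 (8.48) lies with the knockdown arrays, and the epithelial and desmosome means of that array (7.81 and 7.57) are the highest of the 12.

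Markers of other cells that may make keratins, and of neural and pluripotent cells, were counted in the same way. Of 18 tested endoderm genes 3 fell in siPRMT8 and 2 rose in siPRMT1 against D3. Against siSCR 1 rose in siPRMT8, Cxcr4 (0.91), and 5 rose and 1 fell in siPRMT1, with Dab2 (0.53) and Gata6 (0.44) among those that rose and Foxa1 (-0.50) the one that fell. Those 6 of 18 compare with 18.7% of all genes. Of 8 trophoblast genes 1 rose and 2 fell in siPRMT8 and 1 fell in siPRMT1 against D3. Eomes rose there in siPRMT8 (0.68, limma adjusted p = 0.0336). Against siSCR 2 of the 8 fell in siPRMT8, Gata3 (-0.46) and Tfap2c (-0.55, and -0.34 without siSCR replicate 1), and 1 rose and 1 fell in siPRMT1. Of 6 mesothelium genes 2 rose and 1 fell in siPRMT8 against D3, Upk1b by 1.16 (adjusted p = 0.00207) and Wt1 by 0.25 (adjusted p = 0.0292), and 1 rose and 1 fell in siPRMT1. Gpm6a, which neurons also express, was the one that fell in each and the 1 called against siSCR.

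Of 17 mesenchyme genes 2 rose and 5 fell in siPRMT8 and 1 rose and 3 fell in siPRMT1 against D3. Against siSCR 2 rose and 7 fell in siPRMT8 and 2 rose and 6 fell in siPRMT1, and the collagen-binding proteoglycan Dcn fell by 1.16 and 1.41. Of 18 pan-neuronal genes 16 fell and 0 rose in each knockdown line against D3, with medians of -1.14 in siPRMT8 and -1.31 in siPRMT1, and against siSCR 12 fell and 1 rose in siPRMT8 and 14 fell and 0 rose in siPRMT1. Of 13 neural progenitor genes 2 rose and 3 fell in siPRMT8 and 0 rose and 5 fell in siPRMT1 against D3, and 5 rose and 3 fell, and 1 rose and 5 fell, against siSCR. Of 12 pluripotency genes 2 rose in each line against D3, and against siSCR 1 rose and 1 fell in siPRMT8 and 1 rose in siPRMT1.

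The endoderm list mean ranged from 8.12 to 8.28 in siPRMT1, 7.98 to 8.10 in siPRMT8, 7.98 to 8.08 in siSCR and 8.07 to 8.12 in D3. The trophoblast list mean ranged from 7.03 to 7.11 in siPRMT1, 6.83 to 6.92 in siPRMT8, 6.86 to 7.10 in siSCR and 6.97 to 7.07 in D3. Without siSCR replicate 1, 3763 of 14953 genes were called in siPRMT1 and 4107 in siPRMT8 against siSCR, in place of 2801 and 3565. In that fit, siPRMT1 and siPRMT8 gave 2 and 0 calls, of either direction, in the adhesion list and 4 and 5 among regulators. They gave 0 and 1 in the desmosome list, 1 and 1 in the epidermal list and 0 and 1 in the keratin-binding list. In the same order they gave 4 and 2 in the endoderm list, 3 and 3 in the trophoblast list, 1 and 1 in the mesothelium list, 6 and 7 in the mesenchyme list, 17 and 18 in the pan-neuronal list, 6 and 6 in the progenitor list, 6 and 6 in the other intermediate filament list, and 1 and 1 in the pluripotency list. Without detection calls no marker could be set at 0, and the part of these cells in the keratin values was not tested.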

How the data were processed

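RNA of 12 cultures in 4 groups was hybridised to 1-colour whole-transcript arrays. The deposited values, for 35556 probe sets, were taken as log2 because they span 0.97 to 13.54. How the authors corrected, summarised and normalised them is not given in the sources used, and array medians differed by at most 0.023. No detection call or scanner file was used, so the number of arrays limits the precision. Symbols came from the platform annotation (21789 probe sets with 1 symbol, 1621 with several, 12146 with none), updated through RefSeq. For a gene with several probe sets the one with the highest mean was used.

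Group means were fitted with limma 3.58.1 in R 4.3.3 to all 12 arrays. Benjamini-Hochberg adjustment ran over 14953 genes, and 8 residual degrees of freedom were left. The members, classes and lists were chosen with earlier results of these data known. Named were all simple keratins, every keratin called in any test, the stratified, hair and other keratin of highest signal, up to 2 members called in each direction per list in each knockdown against siSCR, and the 8 genes most like Krt18 and Krt8; genes outside this rule were chosen after their values were seen. Replicate numbers were checked as pairs by correlating same-numbered deviations from group means. These reached 0.161, 0.194 and 0.107 for siSCR and D3 but did not all pass 0.1 elsewhere. For siPRMT1 and D3 they were 0.290, 0.267 and -0.035, and for siPRMT8 and D3 -0.081, -0.229 and -0.254. Such a check cannot exclude pairing.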

Additional observations from a re-analysis of the deposited data

How the results depend on the processing

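Over 119 alternative settings of the 7 keratin counts, 82 stayed within 1.5 times the count given and 37 did not, and the cause was not tested. Leaving out 1 array gave 0 to 2 calls in siPRMT1 against siSCR, 0 to 6 in siPRMT8 against siSCR, 1 to 4 in siPRMT1 against D3, 5 to 6 in siPRMT8 against D3, 0 to 0 in siSCR against D3, 0 to 4 in siPRMT1 against siPRMT8, and 4 to 7 in the F test. In siPRMT8 against siSCR (0), the count was 6 with the mean of siSCR and D3 as the control, 1 with quantile normalisation, median centring, a stricter filter on low values or a fit of those 2 groups, and 7 with array weights. In siPRMT1 against siSCR (1), it was 3 with no filter on low values, 0 in a fit of the 2 groups and 3 with array weights. In siPRMT1 against D3 (1), it was 2 with median centring, no filter or a fit of the 2 groups, and 5 with array weights. The stricter filter tested 5 keratins and left out Krt5, the 1 called, so its count of 0 says nothing of that call. In siPRMT8 against D3 (8 of 30), the count was 4 of the 5 keratins tested with the stricter filter. It was 11 with median centring or array weights, and 10 in a fit of the 2 groups. It was 7 with quantile normalisation, no filter, a trended robust variance or the replicate block. Over all genes, 3544 were called with the stricter filter, 4982 with median centring, 6581 with array weights and 6000 in the fit of the 2 groups, in place of 4135. Array weights were a fit that gave a convergence warning. They made 4 calls in siSCR against D3, 6 in siPRMT1 against siPRMT8 and 11 in the F test. In the same order, 279, 1046 and 8138 of all genes were called. The F test gave 2 of the 5 tested keratins with the stricter filter. Array weights called 5528 of all genes in siPRMT1 and 5694 in siPRMT8 against siSCR, and 6592 in siPRMT1 against D3. With the mean of both controls, 4320 and 4768 of all genes were called in siPRMT1 and siPRMT8. Without both siSCR replicate 1 and siPRMT1 replicate 2, the counts were 3 and 7 for siPRMT1 and siPRMT8 against siSCR. They were 5 for siPRMT1 against D3, 4 for siSCR against D3 and 10 for siPRMT8 against D3. For siPRMT1 against siPRMT8 the count was 7, and in the F test 9. Calls over all 14953 genes moved too, and in the same order were 5077, 5710, 5649, 152, 6121, 1901 and 7483.

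Same-numbered samples share only a number except perhaps in siSCR and D3. With the replicate number as a block, 1 keratin was called in siPRMT8 against siSCR (Krt18, lower, limma adjusted p = 0.0445) and 7 in siPRMT8 against D3, where Krt75 was lost (adjusted p = 0.07). The block changed no other keratin count, and the count over all genes in siSCR against D3 was 15 in place of 23.

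Single keratins turned sign only where they were not called, 32 times in 1042 settings. With the mean of both controls, siPRMT1 values were 0.24 for Krt13, 0.012 for Krt15, 0.18 for Krt4, 0.44 for Krt5 and 0.039 for Krt7, and siPRMT8 values 0.012 for Krt17 and 0.012 for Krt8. Krt75 in siPRMT1 against siSCR was -0.0076 with quantile normalisation and -0.0034 with array weights. Krt8 in siPRMT8 against siSCR was 0.035 with median centring and 0.068 with array weights, and in siSCR against D3 -0.039 with array weights. Leaving out 1 array, or both displaced ones, gave ranges against siSCR of -0.63 to 0.027 for Krt13, -0.75 to 0.0023 for Krt4, -0.56 to 0.095 for Krt5, -0.20 to 0.0504 for Krt7, -0.082 to 0.0800 for Krt75, -0.56 to 0.084 for Krt18 and -0.29 to 0.058 for Krt8 in siPRMT1, and of -0.046 to 0.12 for Krt14, -0.019 to 0.62 for Krt5 and -0.14 to 0.12 for Krt8 in siPRMT8. It gave -0.19 to 0.18 for Krt17 in siPRMT1 against siPRMT8, and for Krt8 -0.037 to 0.12 in siPRMT8 and -0.074 to 0.19 in siSCR against D3. Leaving out siSCR replicate 1 for the named genes of the lists, chosen after seeing the data, ended the calls of Tfap2b, Lama3, Hspa1a and Pnn against siSCR. The labels tie each group to 1 line, so line and knockdown cannot be told apart.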
